A study of Mus musculus with 2 samples.

Results

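Cluster 2 of the mouse corneal cells is a group of differentiating epithelial cells in which *Ly6g6c* and *Spink5*, over both libraries together, stand above their level in the rest of the epithelium. Its members were the cells that carry the number 2 in the cluster column of the deposited cell table, and they numbered 2792 of 28867 cells. The study dissociated the corneas of male mice aged 6 to 8 weeks with dispase, trypsin and collagenase and sequenced single cells with a droplet-based 10x Genomics 3′ assay. The UW library pooled cells from 4 normal mice without a wound, and the W library pooled cells from 4 mice taken 24 h after the central corneal epithelium was scraped off; the strain is not given in the sources used here. Each group was thus 1 library from 8 corneas, so differences between the libraries were not checked against replicates. The study's methods name an assignment of cells to mice, which was not used here. The comparison addresses how the state of these epithelial cells differs between the resting and the healing cornea.

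The corneal epithelium is a stratified sheet in which basal cells divide on the basement membrane, wing cells form the layers above them, and flat superficial cells seal the surface and are shed into the tear film. Cells move upwards as they differentiate, exchange one set of keratins and desmosomal cadherins for another, and finally lay down a barrier of tight junctions and membrane mucins. After a scrape the remaining epithelium spreads over the bare stroma, and keratinocytes near a wound are known to switch on stress keratins and alarmins.

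The UW library held 1904 cells of cluster 2 and the W library 888. They made up 11.6% of all UW cells (95% exact Clopper-Pearson interval 11.1 to 12.1) and 7.15% of all W cells (6.70 to 7.62). Among the cells of the epithelial clusters the shares were 14.1% (13.5 to 14.7) and 10.4% (9.80 to 11.1). These shares are descriptions, because genes that define the cluster differed between the libraries and cell yield was not measured. The median cell held 28377 unique molecular identifiers (UMIs, 1 for each captured transcript) and 4454 genes in UW, and 22095.5 UMIs and 3633.5 genes in W. In total 60708276 UMIs in UW and 22886402 in W were summed. All intervals below cover counting error only.

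The cell table also holds an earlier column of cluster numbers, in which the same number stands for different kinds of cells in UW and in W, so those numbers cannot be compared between the libraries. In that column 77.1% of the UW cells of cluster 2 lay in cluster 1 and 21.6% in cluster 3, and 93.1% of its W cells lay in cluster 0 and 5.97% in cluster 7. Most cells of cluster 2 were thus held in 1 earlier cluster within each library. Over 4883 genes on the log2(CPM + 1) scale, the UW and W cells of cluster 2 differed by 2-fold or more at 18.4%, UW cells of clusters 2 and 4 at 4.79%, and W cells of clusters 2 and 4 at 2.70%. Cells of cluster 2 were thus nearer to cluster 4 of their own library than to cluster 2 of the other, which is a description of these libraries. Doublet calls from the first processing run marked 57 UW cells of cluster 2 (2.99%) and 0 W cells. Cell barcodes present in both libraries numbered 52, they covered 15 cells of cluster 2, and 1 of them stood for a cluster 2 cell in each library.

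*Ly6g6c* encodes a small Ly6 protein held on the membrane by a lipid anchor, *Spink5* the protease inhibitor LEKTI of the epidermal barrier, *Hopx* a homeodomain protein without DNA binding that marks differentiating epithelium, and *Il18* a cytokine of the interleukin 1 family. *Ttc36* encodes a protein with tetratricopeptide repeats. Levels are given as counts in 1000000 UMIs (CPM) summed over the cells of a cluster in a library. With both libraries together, 4 of the 5 markers had their highest CPM in cluster 2, and *Hopx* had 2843 in cluster 2 and 3961 in cluster 6. In UW alone the count was also 4 of 5. In W alone it was 2 of 5, *Spink5* and *Ttc36*, while *Ly6g6c* stood at 423 CPM in cluster 6, 312 in cluster 7 and 311 in cluster 2. Fewer of the markers thus peaked in cluster 2 in W than in UW.

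**Figure D1:**
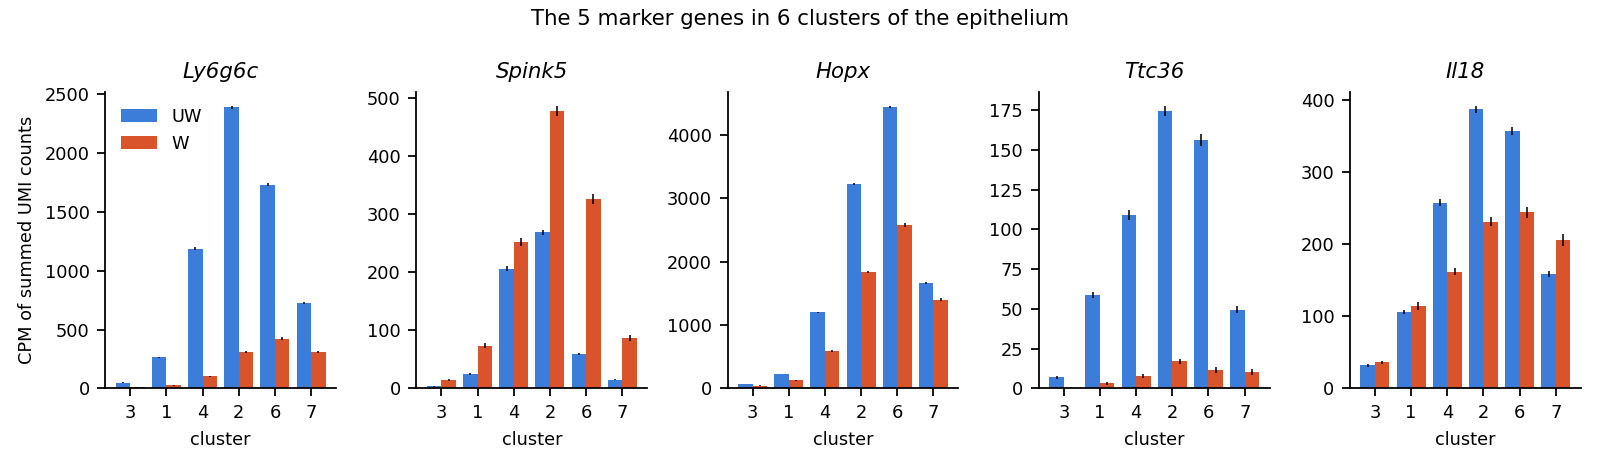
Level of the 5 markers of cluster 2 (CPM of summed UMIs) in epithelial clusters 3, 1, 4, 2, 6 and 7, for UW (blue) and W (orange), with 1 library per bar and exact Poisson 95% intervals as error bars. In UW, *Ly6g6c* is highest in cluster 2 at 2389 CPM, and in W it is 311 CPM there.

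Markers of the epithelial layers were measured in cluster 2. *Krt12*, the keratin of corneal epithelium, was at 35550.00 CPM in UW and 28424 in W. The 9 genes of the basal list summed to 15647 (UW) and 30801 CPM (W), above their sums of 10574 and 23783 CPM in cluster 3. Most of the sum came from keratins, with *Krt5* at 8537 and 9249 CPM, *Krt15* at 6770.5 and 12933 CPM, and *Krt14* in W. The basal integrin subunit *Itgb4*, of the same list, was at 1.76 and 8.74 CPM. The list's other integrin subunit, *Itga6*, was higher in the low and high *Psca* sets of cluster 2 described below. It was at 156 and 220 CPM in those of UW and at 256 and 206 CPM in those of W. The basal list thus held members at high and at low levels. The 8 genes of the superficial list summed to 22251 and 11903 CPM, and the 6 of the suprabasal list to 2615 and 10385 CPM. Of the latter *Krt16* alone made up 388 and 9339.7 CPM. Of the 5 suprabasal genes that met the filter 2 were at least 2-fold higher and 2 lower in W, with a median log2 ratio of −0.51. Of 5 superficial genes 1 was higher and 2 lower, with a median of −0.56. Of 6 basal genes 1 was higher and 0 lower, with a median of 0.55. Among all genes that met the filter 6.35% were higher and 13.2% lower. *Psca*, a superficial marker of the Ly6 family, reached 5892 (UW) and 3993 CPM (W) in cluster 2. It was at 411 and 369.5 CPM in cluster 4 and at 28761 and 16390.2 CPM in cluster 6. *Psca* in cluster 2 thus lay between its levels in the neighbouring clusters 4 and 6 in each library.

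The 20 genes with the highest ratio of cluster 2 over all other epithelium, in both libraries together, were led by *Ly6g6c* at a log2 ratio of 2.24, *Spink5* at 2.08, *Ttc36* at 1.79, the monocarboxylate transporter *Slc5a8* at 1.67 and *Kctd12* at 1.63. They also included the cystatin *Stfa1*, the plakin-type linkers *Eppk1* and *Evpl*, the Golgi calcium pump *Atp2c1*, the actin-severing *Scin* and the keratin *Krt6b*. These genes define the cluster and are a description of it. They did not share a direction between libraries. *Krt6b* was at 8539 CPM in UW and 9314 in W, *Pdlim2* at 137 and 138, and *Slc5a8* at 198 and 54.5. *Krt6b* and *Krt6a*, and *Stfa1* and *Stfa3*, are near-identical copies, and how their shared reads were divided is uncertain.

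Between the libraries, 4883 of the 20198 genes in the table had at least 20 counts over both libraries and at least 20 CPM in one of them. Of these, 310 (6.35%) were at least 2-fold higher in W and 644 (13.2%) at least 2-fold lower in W. The median log2 ratio of W over UW over all 4883 genes was −0.25, and under this filter more genes were lower than higher. Without it the order was the other way, with 2520 genes higher and 1924 lower among all with more than 3 counts. A sum of 0 was set to 3 counts and W held fewer UMIs, which favours higher ratios for genes at few counts. The changed order is therefore not read as a result. With 1 library per group, "higher" and "lower" below describe these libraries, and past 2-fold is a size and not a test. Counts of list members below stand beside these shares of 6.35% and 13.2%, and a list with shares near them is no different from all genes.

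**Figure D2:**
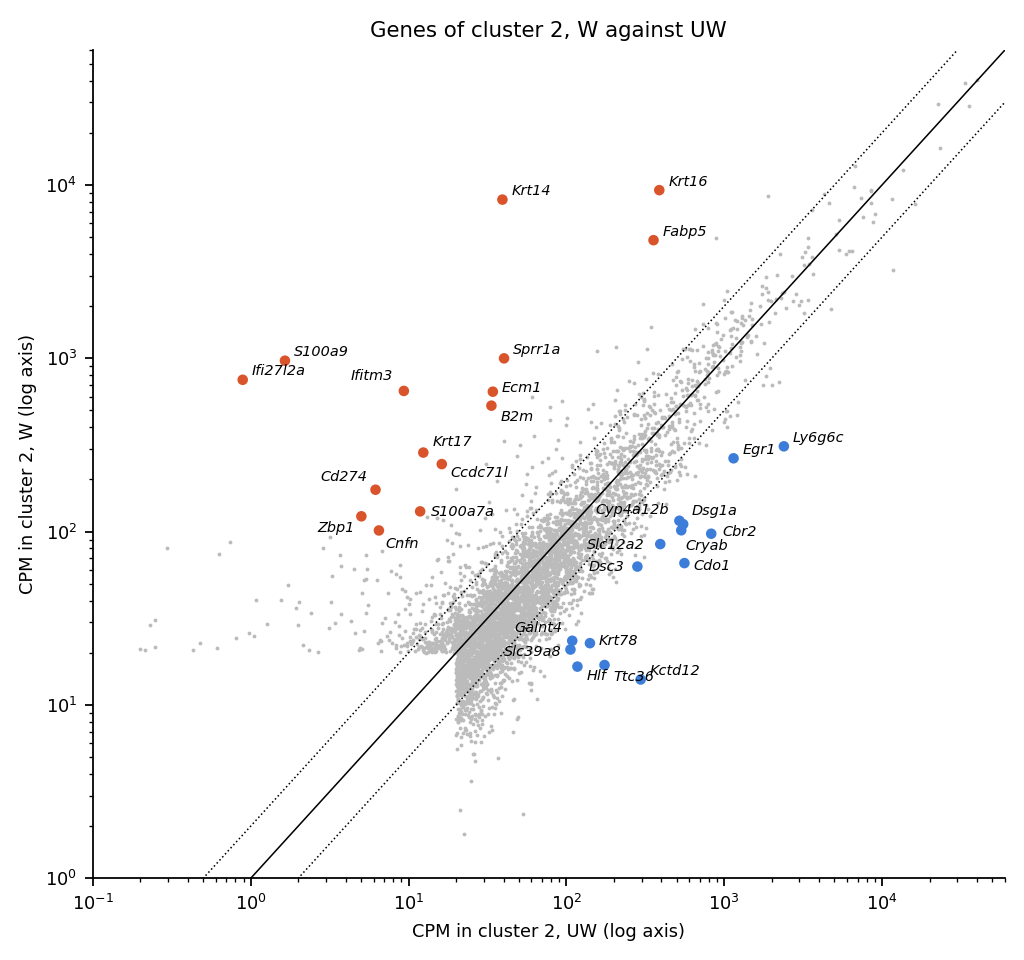
CPM of 4883 genes in cluster 2, UW on the horizontal and W on the vertical axis, both logarithmic, 1 library each. Grey points are all genes, coloured and labelled points are the 15 genes with the highest and the 15 with the lowest ratio among genes at 100 CPM or more in a library, and dotted lines mark 2-fold; *Krt14* lies at 39.3 CPM in UW and 8237 in W.

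Among the 5 markers, *Ly6g6c* lay past 2-fold, with 2389 CPM in UW (2377 to 2402) and 311 in W (303 to 318), a log2 ratio of −2.94 (−2.98 to −2.91). *Ttc36* was at 174 CPM in UW (171 to 178) and 16.997 in W (15.3 to 18.8), a log2 ratio of −3.36 (−3.51 to −3.21). *Hopx* was 3225 CPM in UW and 1831 in W, with a log2 ratio of −0.82, and *Il18* was 387 and 231, with a log2 ratio of −0.74. *Spink5* alone of the 5 was higher in W, at 478 CPM (469 to 487) against 269 in UW (265 to 273), a log2 ratio of 0.83. The 5 markers therefore did not move as a block, with 2 past 2-fold in the lower direction, 3 within 2-fold, and *Spink5* opposite in sign to the others. On the mouse genome GRCm38, *Ly6g6c* spans chr17:35065388-35070050, *Hopx* chr5:77086988-77115121, *Ttc36* chr9:44799397-44803072 and *Il18* chr9:50554827-50581840.

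Keratins of basal and stressed epithelium had some of the largest ratios. *Krt14* (chr11:100203162-100207548), the type I keratin of basal cells, was at 39.3 CPM in UW (37.8 to 40.9) and 8237 in W (8200.3 to 8275), a 209-fold difference and a log2 ratio of 7.71. *Krt16* (chr11:100246091-100248902), a keratin of injured and hyperproliferative skin, was at 388 CPM in UW and 9339.7 in W, a log2 ratio of 4.59 (4.57 to 4.61). *Krt17*, another wound keratin, was at 12.4 CPM in UW and 286 in W, a log2 ratio of 4.53. Of the 15 keratins that met the count filter, 5 were at least 2-fold higher in W and 1 was lower, beside 6.35% and 13.2% of all genes, with a median log2 ratio of 0.65. The lower one was *Krt78*, a keratin of upper epithelial layers, at 141 CPM in UW and 22.7 in W. *Krt19* was higher at 137 and 509 CPM, and the last, *Krt7*, was at 7.51 and 23.6. *Krt14*, *Krt16* and *Krt17* have similar sequences, so some reads may be assigned to the wrong one of them.

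Free RNA in the droplets bears on *Krt14*. Stromal cells of cluster 0, which should lack this keratin, were at 57.4 (UW) and 821 CPM (W), so the 39.3 CPM of cluster 2 in UW was at the level of background and the 209-fold ratio rests on it, while the 8237 CPM in W was above the stromal level of that library. After each cell was thinned to 5000 UMIs, 1889 UW and 881 W cells of cluster 2 remained and 15 and 7 were too shallow to keep. *Krt14* then had a UMI in 16.9% of UW cells (15.3 to 18.7) and in 99.5% of W cells (98.8 to 99.9), against 23.3% and 97.8% of stromal cells. The stromal cells had median depths of 11853 UMIs in UW and 17588 in W before thinning. Shares therefore separate cluster 2 from background poorly in W, and the number of UMIs per cell is the better measure. The median W cell of cluster 2 held 34 *Krt14* UMIs, and the median W stromal cell 4. Without thinning, the share of cluster 2 cells with a *Krt14* UMI was 63.7% in UW and 100% in W. After thinning, *Krt17* had a UMI in 5.51% of UW cells of cluster 2 and 5.09% of UW stromal cells. In W the shares were 47.8% and 30.3%. The log2 ratio of *Krt17* thus also rests on a UW share close to that of the stroma.

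**Figure D3:**
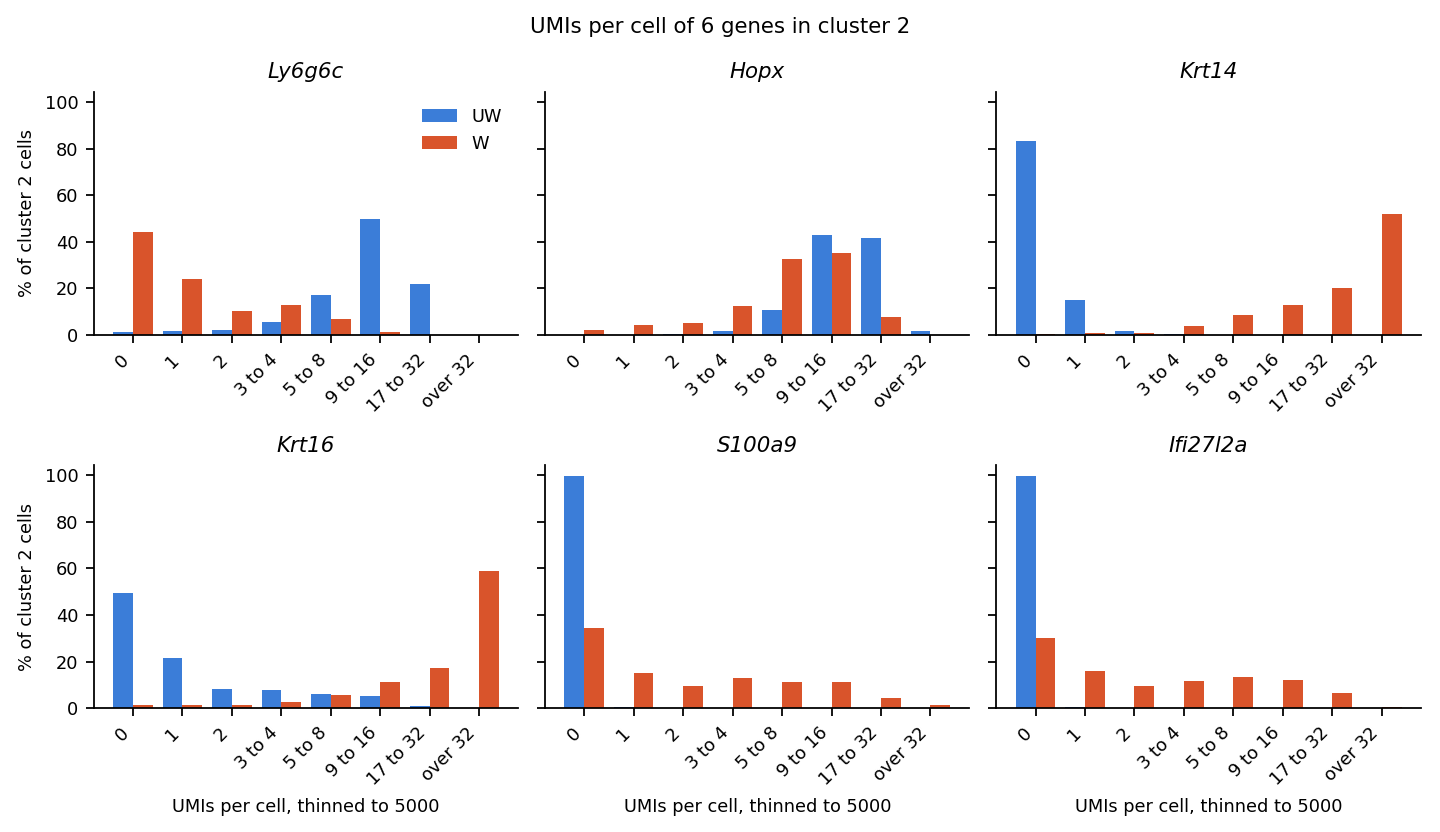
Share of cluster 2 cells (%) by UMIs per cell after thinning to 5000 UMIs, for *Ly6g6c*, *Hopx*, *Krt14*, *Krt16*, *S100a9* and *Ifi27l2a* in UW (1889 cells) and W (881 cells). The median *Ly6g6c* count is 12 UMIs in UW and 1 in W, and that of *Krt14* is 0 and 34.

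The alarmins *S100a9* and *S100a8*, calcium-binding proteins that together form calprotectin, differed strongly in level. *S100a9* (chr3:90692632-90695721) was at 1.65 CPM in UW (1.34 to 2.003) and 969 in W (956 to 982), a log2 ratio of 9.20 (8.92 to 9.50). *S100a8* was at 0.296 CPM in UW and 80.3 in W, a log2 ratio of 8.08. The W stroma held *S100a8* at 46.0 and *S100a9* at 41.4 CPM. After thinning to 5000 UMIs, *S100a8* had a UMI in 19.4% of W cells of cluster 2 and 14.8% of W stromal cells. In W, *S100a8* thus lay closer to its stromal level than *S100a9* did, and the part of free RNA in it was not tested. Neutrophils make both proteins, and the neutrophil cluster of the W library held 710 cells. In W the ratio of *S100a9* over *S100a8* counts was 12.1 in cluster 2, 11.3 in cluster 6, 11.8 in cluster 7, 5.78 in cluster 4, 3.51 in cluster 1 and 2.10 in cluster 3. It was 1.47 in the neutrophil cluster and 0.901 in the stroma. The ratio thus varied among the epithelial clusters and was close in clusters 2, 6 and 7. In all of these epithelial clusters it was above the neutrophil and stromal values. The 7 genes of the neutrophil list summed in cluster 2 to 2.09 (UW) and 1049.9 CPM (W), nearly all from this pair. The part of neutrophil RNA in these counts was not tested. Other neutrophil markers in cluster 2 summed to 0.148 (UW) and 0.524 CPM (W), and to 824 CPM in the neutrophil cluster of W.

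Of the 18 stress keratins and alarmins that met the filter, 8 were at least 2-fold higher in W and 0 lower, with a median of 0.69. *S100a7a*, the mouse psoriasin-type protein, was at 11.8 CPM in UW and 131 in W. The annexin *Anxa1*, a phospholipid-binding protein with a role in resolving inflammation, was at 736 and 2055 CPM. *S100a11* was at 3583 and 7211 CPM, a log2 ratio of 1.01. *Krt6a* was at 6638 CPM in UW and 9784 in W, and *Krt6b* at 8539 and 9314, so both were abundant in the resting library already and stayed within 2-fold.

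The cornified envelope is the cross-linked protein shell of terminal keratinocytes, and 9 of its genes met the filter. Of these, 3 were higher and 1 lower in W, beside 6.35% and 13.2% of all genes, with a median of 0.11. *Sprr1a*, a small proline-rich envelope precursor, was at 40.3 CPM in UW and 999.6 in W, a log2 ratio of 4.63 (4.57 to 4.69). *Cnfn*, cornifelin, was at 6.49 and 102 CPM, a log2 ratio of 3.97, and *Sbsn* at 5.42 and 61.0. *Scel*, sciellin, was lower, at 278 and 107 CPM. *Ecm1*, a secreted matrix glycoprotein of skin, was at 34.2 and 642 CPM, a log2 ratio of 4.23, and *Fabp5*, the epidermal fatty acid-binding protein, at 357 and 4804 CPM, a log2 ratio of 3.75.

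The interferon response was represented by 31 genes that met the filter, of which 19 were at least 2-fold higher in W and 0 lower. Their median log2 ratio was 1.37, beside −0.25 over all genes. *Ifi27l2a* (chr12:103442167-103443680), an interferon-induced mitochondrial protein, had the highest ratio among the genes at 100 CPM or more, from 0.889 CPM in UW (0.668 to 1.16) to 752 in W (741 to 763), a log2 ratio of 9.72 (9.34 to 10.14). *Ifitm3*, a membrane protein that restricts virus entry, was at 9.34 CPM in UW and 648 in W, a log2 ratio of 6.12. *Zbp1*, a sensor of Z-form nucleic acids, was at 5.02 and 123 CPM, a log2 ratio of 4.61. All 3 were at under 10 CPM in the resting cells and at more than 100 CPM in the W cells. In the stroma *Ifi27l2a* was at 97.5 (UW) and 1375 CPM (W), *Ifitm3* at 967 and 5567 CPM, and *Zbp1* at 2.85 and 54.7 CPM. The 43 genes of the list summed to 1923 and 6489 CPM in cluster 2 and to 3057 and 15223 CPM in the stroma, and the part of free RNA from the stroma in these values was not tested.

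Genes of class I antigen presentation were among the 19. *B2m*, the light chain of class I molecules, was at 33.5 CPM in UW (32.1 to 35.0) and 533 in W (524 to 543), a log2 ratio of 3.99. The heavy chains *H2-K1* at 306 and 629 CPM and *H2-D1* at 287 and 626 CPM had log2 ratios of 1.04 and 1.13, and these copies may share reads. The light chain thus had the larger ratio. In the stroma *B2m* was at 618 and 1909 CPM, above its level in cluster 2 in both libraries, and *H2-K1* was at 333 and 1745 CPM. *Cd274*, which encodes the checkpoint ligand PD-L1, was at 6.18 CPM in UW and 175 in W, a log2 ratio of 4.82.

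The antiviral effectors *Isg15*, *Ifit1* and *Ifit3* were measurable in both libraries. *Isg15*, a ubiquitin-like modifier, was at 62.6 CPM in UW and 355 in W, a log2 ratio of 2.50. *Ifit1*, which binds foreign RNA caps, was at 48.4 and 272 CPM, a log2 ratio of 2.49, and *Ifit3* at 50.5 and 317 CPM, a log2 ratio of 2.65. *Irf7*, a transcription factor of the interferon response, was at 41.6 and 133 CPM, and the synthetase-like *Oasl1* at 155 and 399 CPM. In the stroma *Isg15* was at 5.06 and 35.4 CPM and *Ifit1* at 18.9 and 107 CPM, below cluster 2, and *Ifit3* at 64.3 and 289 CPM, close to it. *Ifit3b*, at 36.4 and 197 CPM, is a near-identical copy of *Ifit3* and the reads of both are uncertain.

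The promoters of 4 of these genes are shown, all taken from those that hold a match. Interferon-stimulated genes are known to carry a short repeated element, TTTC, a gap of 2 bases and TTTC again. On the other strand it reads GAAA, a gap of 2 bases and GAAA. Letters are from RefSeq on GRCm38.p6 in the direction of each gene, and capitals mark the matches, which overlap in *Isg15*. The stretch of *B2m* lies at chr2:122147508-122147597 on the plus strand, that of *Ifit3* at chr19:34583333-34583456 on the plus strand, that of *Isg15* at chr4:156200835-156200936 on the minus strand, and that of *Ifit1* at chr19:34640745-34640853 on the plus strand.
B2m: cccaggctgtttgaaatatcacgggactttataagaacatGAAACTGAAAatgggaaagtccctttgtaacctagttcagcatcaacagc
Ifit3: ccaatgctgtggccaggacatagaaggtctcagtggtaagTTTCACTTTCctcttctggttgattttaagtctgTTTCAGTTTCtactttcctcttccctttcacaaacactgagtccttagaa
Isg15: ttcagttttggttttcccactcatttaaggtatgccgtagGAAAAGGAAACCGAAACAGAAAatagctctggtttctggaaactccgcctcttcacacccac
Ifit1: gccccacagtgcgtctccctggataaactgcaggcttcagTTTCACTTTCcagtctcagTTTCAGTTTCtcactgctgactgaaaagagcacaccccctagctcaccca

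*B2m* had 1 match, *Ifit3* 2, *Isg15* 3 and *Ifit1* 2, the nearest of them 139, 122, 66 and 85 bases before the gene's start. The stretch around the matches of *Ifit3b* had the same letters as that of *Ifit3*. Of the 31 interferon genes that met the filter, 25 had a promoter window, and 10 of these (40%) held the element in the 250 bases before the start, against 135 of 3852 genes (3.5%) that met the filter in cluster 2 and 936 of 27025 genes (3.46%) in the reference. Among the interferon genes at least 2-fold higher in W, 7 of 15 with a window (46.7%) held it, and among those under 2-fold 3 of 10 (30%). *Irf7*, *Oasl1*, *H2-K1*, *H2-D1* and *Ifitm3* were among the genes with a window and no match. *Ifi27l2a* and *Zbp1* had no window. A match is a stretch of letters, and binding was not measured here.

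Shares of cells for the interferon and alarmin genes were read beside the stroma. After thinning, *S100a9* had a UMI in 0.635% of UW cells (0.329 to 1.11) and 65.7% of W cells of cluster 2 (62.5 to 68.9), against 0.906% and 18.9% of stromal cells. *Ifi27l2a* had a UMI in 0.635% and 69.7%, against 19.5% and 84.0% of stromal cells. For *Ifi27l2a* the stromal share was the larger in both libraries, so its share does not separate expression in cluster 2 from free RNA. *Sprr1a* had a UMI in 12.4% and 84.8% of cluster 2 cells, against 0.820% and 7.85% of stromal cells. *Krt16* had one in 50.5% and 98.8%, against 31.4% and 79.4%.

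The UMIs of the W-high genes were spread unevenly over the W cells. The 89 of 881 thinned cells with the most UMIs of a gene held 25.6% of the *Krt14* UMIs and 26.1% of the *Krt16* UMIs. They held 44.1% for *Ifi27l2a*, 49.0% for *S100a9*, 58.3% for *Cd274* and 83.5% for *Cnfn*. The keratins were thus present in most cells, and *Cnfn* UMIs came mostly from few cells, with 18.4% of W cells holding any (15.9 to 21.1). *Ifi27l2a* was detected in 69.6% of the 579 W cells with *S100a9* (65.7 to 73.3) and in 69.9% of the 302 without it (64.3 to 75.0). It was detected in 77.3% of W cells with *Cd274* (72.5 to 81.5) and in 64.7% of those without (60.4 to 68.7).

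The genes with the lowest ratios included several of the cluster's own leading genes. *Kctd12* (chr14:102976581-102982637), an auxiliary subunit of GABA-B receptors, was at 296 CPM in UW (291 to 300.00) and 14.03 in W (12.5 to 15.6), a log2 ratio of −4.40 (−4.56 to −4.24). *Cbr2*, a carbonyl reductase, was at 828 CPM in UW and 97.3 in W, a log2 ratio of −3.09. *Cdo1*, cysteine dioxygenase of taurine synthesis, was at 559.8 and 65.8 CPM, also at −3.09. All 3 were at more than 200 CPM in the resting cells and under 100 CPM in the W cells.

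Further genes of this group were transporters, chaperones and enzymes. *Slc12a2*, the NKCC1 salt cotransporter, was at 394 CPM in UW and 84.8 in W, a log2 ratio of −2.21, and *Slc39a8*, a zinc and manganese importer, was at 106 and 20.9 CPM. *Cryab*, the small heat shock protein alpha B-crystallin, was at 535 and 102 CPM, a log2 ratio of −2.39. *Cyp4a12b*, a fatty acid hydroxylase with the near copy *Cyp4a12a*, was at 520.3 and 116 CPM, and *Galnt4*, which starts O-glycan chains, at 109 and 23.5 CPM.

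Single cells showed the same for the lead marker. *Ly6g6c* had a UMI in 98.5% of UW cells after thinning (97.8 to 99.0) and in 55.6% of W cells (52.3 to 58.9), against 18.5% and 2.28% of stromal cells. Without thinning the shares in cluster 2 were 99.5% and 83.1%. *Kctd12* had a UMI in 70.4% and 4.99% of cells, against 22.4% and 12.998% of stromal cells, and whether the stroma expresses it was not tested. *Ttc36* had one in 55.6% and 6.92% of cells, against 2.80% and 0.351%. *Spink5* had one in 57.4% (55.2 to 59.7) and 74.7% (71.7 to 77.5), against 1.16% and 2.87%, and *Hopx* in 99.9% and 97.96%, against 33.4% and 12.1%.

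W cells with and without *Ly6g6c* were then set side by side at the same depth. *Krt14* was detected in 487 of 490 cells with *Ly6g6c* (99.4%) and in 390 of 391 cells without it (99.7%). *S100a9* was detected in 60.6% of the cells with *Ly6g6c* (56.1 to 65.0) and in 72.1% of those without it (67.4 to 76.5). *Ly6g6c* and *Krt14* were thus found together in nearly every W cell that held the former, although the stromal share of *Krt14* in this library bears on that count too.

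Desmosomes tie keratinocytes to each other, and their genes had a median log2 ratio of −0.55. Of 13 that met the filter, 3 were lower and 1 higher in W, beside 13.2% lower and 6.35% higher among all genes. *Dsg1a*, a desmoglein of differentiated layers, was at 549.8 CPM in UW and 110.4 in W, a log2 ratio of −2.32, and its near copy *Dsg1b* makes the split of reads uncertain. *Dsc3*, a desmocollin, was at 282 and 62.9 CPM, a log2 ratio of −2.16, and the linker *Dsp*, desmoplakin, at 1947 and 884 CPM, a log2 ratio of −1.14. The plakophilin *Pkp3* went the other way, at 189 and 413 CPM. Of 19 tight junction genes 1, *Cldn1*, was higher in W, at 10.0 and 87.1 CPM, and 0 were lower. Of 5 membrane mucin genes 0 were past 2-fold, with a median of −0.33.

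Proteases and their inhibitors govern shedding of surface cells, and *Spink5* belongs to the inhibitors. Of 17 inhibitors that met the filter, 7 were at least 2-fold higher in W and 0 lower, beside 6.35% and 13.2% of all genes, with a median of 0.81. *Serpinb1a*, which blocks neutrophil serine proteases, was at 165 CPM in UW and 425 in W. The cathepsin inhibitors *Cstb* at 734 and 1577 CPM and *Cst3* at 92.5 and 196 CPM were also higher. Other inhibitors stayed within 2-fold, with *Cst6* at 181 and 97.3 CPM, *Csta1* at 526 and 738 CPM, *Serpinb5* at 395 and 503 CPM, *Spint1* at 213 and 243 CPM and *Spint2* at 799 and 771 CPM. *Stfa1* at 285 and 193 CPM and *Serpinb11* at 481 and 389 CPM were lower within 2-fold.

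Of 13 serine protease genes, 4 were higher in W and 0 lower, beside the same shares, with a median of 0.31. *Prss27* was at 251 CPM in UW and 743 in W, a log2 ratio of 1.57, and *Prss22* at 215 and 497 CPM, a log2 ratio of 1.21. The other 2 were the kallikreins *Klk8*, at 5.34 and 53.4 CPM, and *Klk10*, at 16.7 and 43.1 CPM. *St14*, the membrane protease matriptase, was at 78.8 and 127 CPM, and the clotting starter *F3*, tissue factor, was at 212 and 144 CPM.

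*Ly6g6c* belongs to the Ly6 and uPAR domain genes, of which 11 met the filter. Of these, 2 were higher and 2 lower in W, *Ly6g6c* among the latter, beside 6.35% and 13.2% of all genes, with a median of 0.14. *Ly6a*, known as Sca-1 and induced by interferon, was at 61.0 CPM in UW and 595 in W, a log2 ratio of 3.29, and *Plaur*, the urokinase receptor, at 5.06 and 44.1 CPM. *Lypd2* was at 16172 and 7736 CPM, a log2 ratio of −1.06. *Slurp1*, a secreted member, was at 7527 and 6494 CPM, *Lypd3* at 707 and 840.1, and *Lynx1* at 105 and 116, all within 2-fold.

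The interleukin 1 family of *Il18* also differed by member. Of 5 genes that met the filter, 3 were higher and 0 lower in W, with a median of 1.401. *Il1a*, an alarm cytokine stored in keratinocytes, was at 85.3 CPM in UW and 225 in W. *Il1f6* and *Il1f9*, which encode interleukin 36 cytokines, were at 0.609 and 21.4 CPM and at 1.56 and 40.6 CPM. *Pycard*, the adaptor ASC of inflammasomes, was at 269.9 and 722 CPM, a log2 ratio of 1.42, and was the 1 of 2 inflammasome genes past 2-fold.

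Of the inflammatory cytokines and chemokines 4 met the filter and 3 were higher in W. *Ccl2*, which draws monocytes, was at 0.428 and 20.8 CPM, *Cxcl2*, which draws neutrophils, at 1.09 and 40.5, and *Tslp*, an epithelial alarm cytokine, at 1.27 and 29.2. All stayed under 50 CPM in cluster 2. In the stroma *Ccl2* was at 19.1 and 861 CPM, *Cxcl2* at 1.20 and 38.7, and *Tslp* at 1.65 and 6.81, and the neutrophil cluster of W held *Cxcl2* at 23503 CPM. The 28 genes of the list summed to 103 (UW) and 269 CPM (W) in cluster 2 and to 92.5 and 1924 CPM in the stroma. The part of RNA from those cells was not tested.

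Of 12 genes of EGF receptor ligands and feedback, 3 were higher and 1 lower, beside 6.35% and 13.2% of all genes, with a median of 0.08. *Areg*, amphiregulin, was at 346 CPM in UW (342 to 351) and 1507 in W (1491 to 1523), a log2 ratio of 2.12. *Epgn*, epigen, was at 31.1 and 82.9 CPM and the phosphatase *Dusp5* at 379.5 and 815, whereas *Btc*, betacellulin, was at 42.1 and 14.6. Of 11 migration and matrix genes 4 were higher and 0 lower, beside the same shares, with a median of 0.59. They were the matrix protease *Mmp3* at 0.741 and 87.5 CPM, the filament *Vim* at 5.25 and 52.5, *Plaur*, and the integrin *Itgb6* at 12.1 and 27.7. In the stroma *Mmp3* was at 4.22 and 4515 CPM, *Vim* at 1566 and 3127 and *Itgb6* at 0.914 and 1.79. The 32 genes of the list summed to 665 and 901 CPM in cluster 2 and to 3794 and 9859 CPM in the stroma, and the part of stromal RNA in the *Mmp3* and *Vim* values was not tested.

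Of 31 transcription factors of differentiation that met the filter, 3 were higher and 2 lower in W, beside 6.35% and 13.2% of all genes, and their median of −0.21 was near the −0.25 of all genes. The counts do not set this list apart. *Prdm1*, the repressor Blimp-1, was at 144 CPM in UW and 428 in W, a log2 ratio of 1.57. *Hes1*, a target of Notch signals, was at 995 and 431 CPM, a log2 ratio of −1.21. *Klf4*, which drives barrier formation, was at 1167 and 1666 CPM, *Elf3* at 1289.7 and 1757, and *Pax6*, the eye master gene, at 275 and 218. *Klf5* was at 374 and 372 CPM and *Ehf* at 424 and 362. *Zfp750* and *Klf6* had log2 ratios of 0.67 and 0.89, and *Ovol1* and *Grhl1* of −0.80 and −0.74. The remaining 3 past 2-fold were *Barx2* and *Cebpd*, higher at 24.9 and 37.6 CPM in W, and *Rora*, lower at 36.6 CPM.

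Immediate early genes, which respond within minutes to stimulation and to tissue dissociation, were measured for 17 that met the filter. Of these 2 were higher and 4 lower, beside 6.35% and 13.2% of all genes, with a median of 0.20. *Fos* was at 2218 CPM in UW and 729.8 in W, a log2 ratio of −1.60, *Egr1* at 1146 and 265 CPM, a log2 ratio of −2.11, *Jund* at 1853 and 793, and *Ier2* at 1045 and 498. *Myc* at 2.14 and 22.3 CPM and *Fosl1* at 26.5 and 56.0 CPM were higher. Of the 141 list or named genes past 2-fold, *Fosl1* took the other sign, −0.12, when cells with leukocyte or stromal UMIs were left out. The part of dissociation in these values was not tested.

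**Figure D4:**
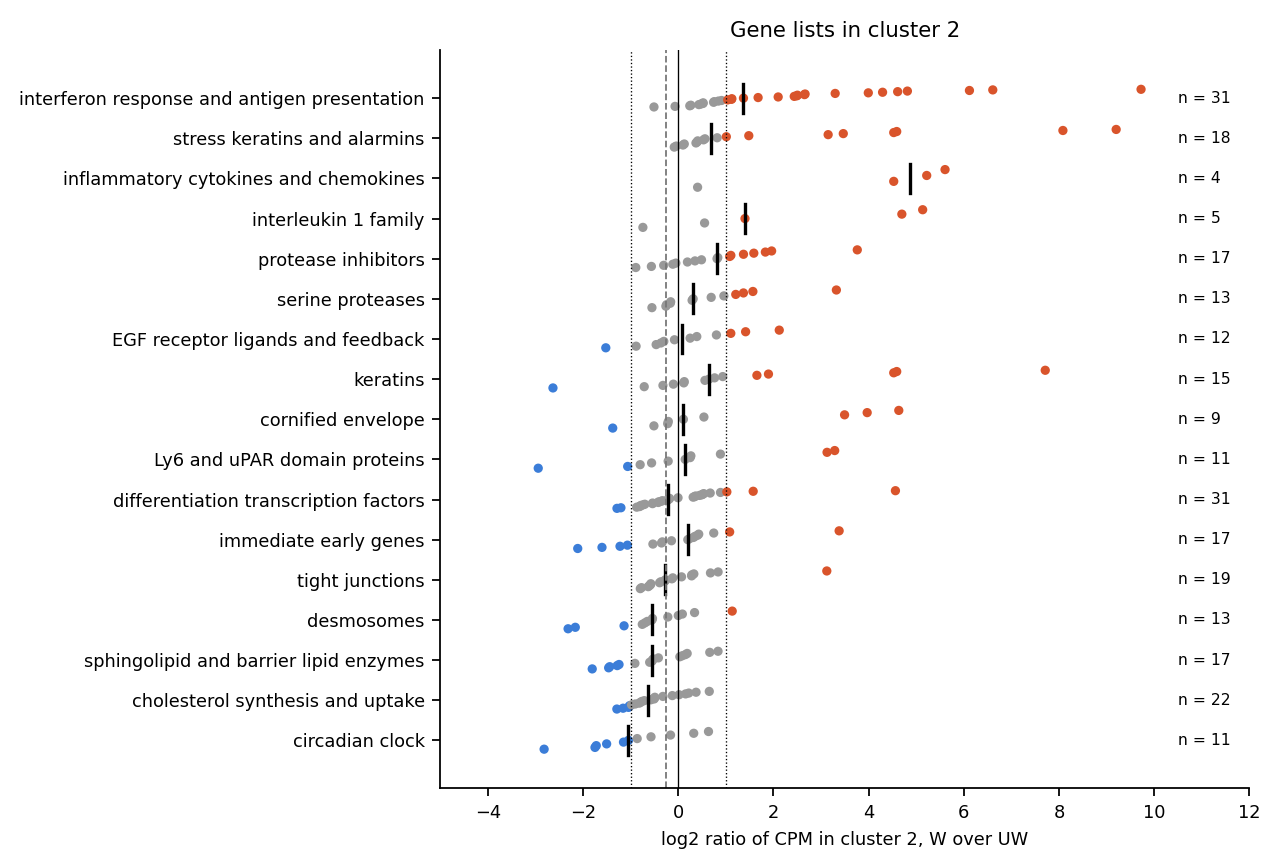
Log2 ratio of CPM in W over UW in cluster 2 for the genes of 17 lists that met the count filter, 1 point per gene, orange where at least 2-fold higher in W and blue where lower, grey otherwise. Black ticks are list medians, the dashed line is the median of all genes at −0.25, and dotted lines mark 2-fold; the interferon list has its median at 1.37 and the circadian list at −1.05.

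Of 22 cholesterol synthesis and uptake genes, 5 were lower and 0 higher in W, beside 13.2% lower and 6.35% higher among all genes, and their median was −0.65. *Hmgcs1*, an early enzyme of the pathway, was at 534 CPM in UW and 239 in W, *Insig1*, which restrains the pathway, at 159.98 and 65.4, *Msmo1* at 457 and 221, *Sc5d* at 459.99 and 225, and *Cyp51* at 309 and 152. Of 17 sphingolipid and barrier lipid enzymes 5 were lower and 0 higher, with a median of −0.54. They were *Kdsr*, *Sptlc1*, *Cers6*, *Elovl5* and *Alox12*, all under 100 CPM, with log2 ratios of −1.81, −1.46, −1.44, −1.28 and −1.25.

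The circadian clock list had the lowest median, −1.05, with 6 of 11 genes lower in W and 0 higher. *Hlf*, a clock-driven transcription factor, was at 118 CPM in UW (115 to 120.3) and 16.6 in W (15.02 to 18.4), a log2 ratio of −2.82, and its relatives *Dbp* at 80.5 and 39.0 CPM and *Tef* at 39.7 and 13.98 were lower too. *Per3*, *Cry2* and *Ciart* had log2 ratios of −1.15, −1.72 and −1.75. The hour of day of each collection is not given in the sources used here, so wound and hour cannot be told apart.

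Of the 16 genes of corneal crystallins and aldehyde enzymes, which absorb light damage and detoxify, 1 was higher and 4 lower, beside 6.35% and 13.2% of all genes, with a median of −0.16. *Aldh1a3*, which makes retinoic acid, was at 99.1 CPM in UW and 413 in W. *Tkt*, transketolase, was at 839 and 384 CPM, the alcohol dehydrogenases *Adh1* at 381 and 146 and *Adh7* at 198 and 81.1, and *Aldh1a1* at 29.4 and 10.8. Among 9 water and ion transport genes, *Fxyd3* was higher at 352 and 828 CPM, and *Slc12a2* and the sodium channel subunit *Scnn1a*, at 58.0 and 13.3, were lower.

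Marker lists of cell types outside the corneal epithelium, and of the limbus and conjunctiva at its border, were summed in cluster 2. Of 5 pan-leukocyte genes 0 met the filter, and they summed to 0.741 (UW) and 12.4 CPM (W), while they reached 6939 in the neutrophil cluster of W. *Ptprc*, which encodes CD45, was at 0.0494 CPM in UW and 0.743 in W, and the T cell gene *Cd3e* had 0 counts in both. Of 8 keratocyte genes 5 met the filter and 1, *Lum*, was past 2-fold, at 28.3 and 58.9 CPM. They summed to 273 (UW) and 393 CPM (W), and to 83341 and 43773 CPM in the stroma. The 10 monocyte and macrophage genes summed to 271 and 592 CPM, of which *Arg1*, arginase 1, made up 218 and 478. Of the 3 that met the filter 2 were higher in W, *Arg1* and *Cd68* at 21.3 and 62.2 CPM, with a median of 1.13. The 6 T cell genes summed to 1.00 and 1.97 CPM. The 5 limbal genes summed to 31.001 and 756 CPM, with all 3 that met the filter higher in W and a median of 2.58, and *Ifitm3*, which the interferon list holds too, made up 648 CPM of the sum in W. They summed to 4155 and 13289 CPM in the stroma, and *Ifitm3*, *Gpha2* at 14.02 and 54.5 CPM and *Cd63* at 7.43 and 44.5 CPM were the 3. The 7 conjunctival genes, all but 1 of them keratins, summed to 6329.8 and 9971 CPM, with 3 of 6 higher in W and a median of 1.21. The lists of corneal endothelium, melanocytes, blood vessels and goblet cells had 0 genes that met the filter and summed to 0.692 to 3.77 CPM in UW and 1.31 to 7.08 in W. The part of these cells in the differences above was not tested.

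Clusters 4 and 6, the neighbours of cluster 2 below and above by *Psca*, were measured in the same libraries, so their differences are not independent of those in cluster 2. In cluster 4, 359 of 5180 genes (6.93%) were at least 2-fold higher in W and 736 (14.2%) lower, and in cluster 6, 395 of 4257 (9.28%) were higher and 417 (9.8%) lower. *Krt14* had log2 ratios of 7.99 in cluster 4, 7.71 in cluster 2 and 6.36 in cluster 6, with W levels of 14624, 8237 and 3317 CPM and UW levels at or under the 57.4 CPM of the stroma. *Sprr1a* had log2 ratios of 3.83, 4.63 and 6.15 in the same order, and *Ecm1* of 5.02, 4.23 and 3.09. *Ly6g6c* had log2 ratios of −3.52, −2.94 and −2.03. For these 4 genes the ratio of cluster 2 lay between those of its neighbours, and no difference is called particular to cluster 2.

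*Spink5* differed more between the clusters than its log2 ratio of 0.83 in cluster 2 shows. In cluster 4 it was at 206 (UW) and 252 CPM (W), at 269 and 478 in cluster 2, and at 59.4 and 327 in cluster 6. In UW it was thus low in cluster 6, and in W it was above 250 CPM in all 3. In cluster 6 *Cd274* was at 58.2 (UW) and 300.4 CPM (W), and in cluster 2 at 6.18 and 175 CPM.

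**Figure D5:**
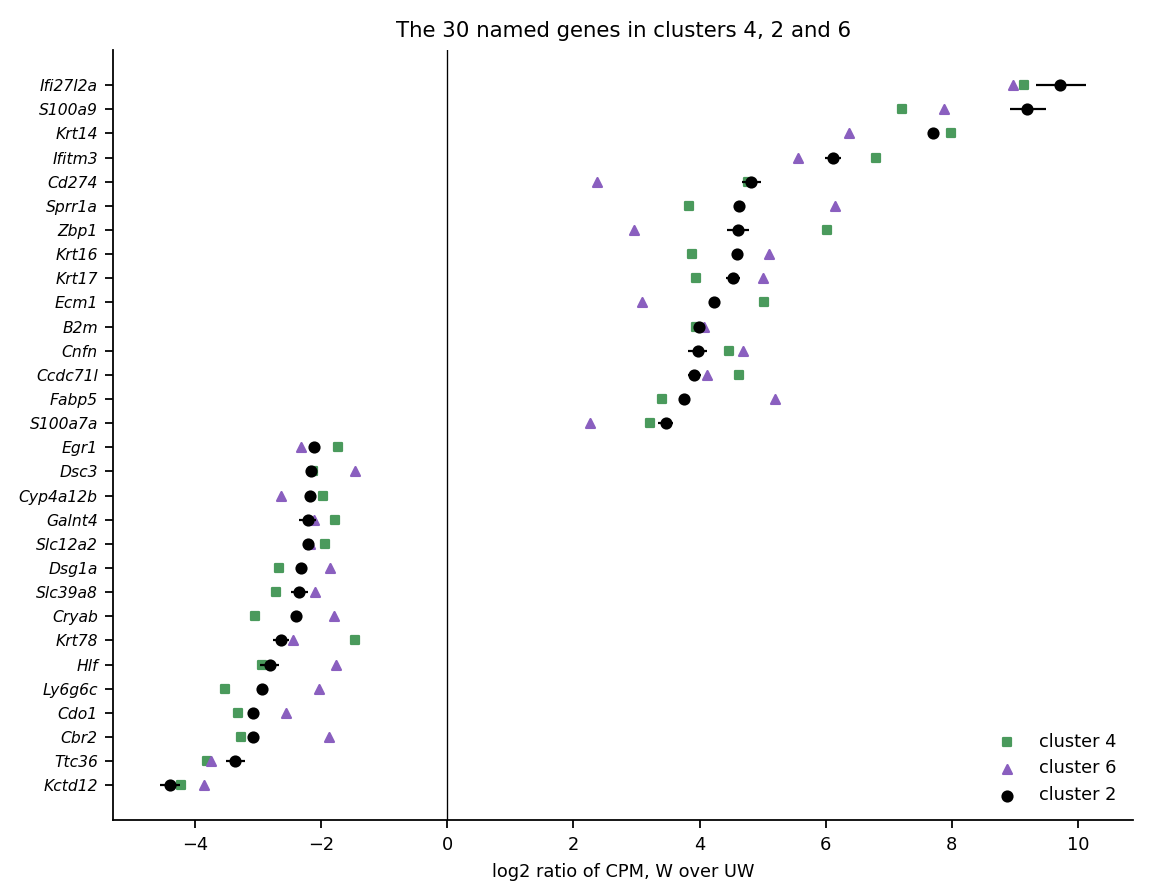
Log2 ratio of CPM in W over UW for the 30 named genes in clusters 4, 2 and 6, 1 library per condition. The horizontal line through the point of cluster 2 is its 95% counting interval; *Krt14* has log2 ratios of 7.99, 7.71 and 6.36 in clusters 4, 2 and 6.

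The log2 ratio of 10 genes in cluster 2 lay farthest from those in both neighbours in the same direction. *S100a9* had 9.20 in cluster 2, 7.21 in cluster 4 and 7.87 in cluster 6, and *Ifi27l2a* 9.72, 9.15 and 8.97. *Eif4ebp1*, a brake on translation, had 0.12 in cluster 2, 1.35 in cluster 4 and 0.69 in cluster 6. *Gadd45b*, a stress-induced gene, was in cluster 2 at 115 (UW) and 119 CPM (W), a log2 ratio of 0.05, and had −0.38 in cluster 4 and −0.82 in cluster 6. *4430402I18Rik* had 2.74, 2.10 and 2.21, and *Ly6e*, an interferon-induced Ly6 protein, 0.89, 0.42 and 0.34. *Aldh1a3* had 2.06, 2.81 and 2.72, *Krt19* 1.89, 2.36 and 2.41, *Cnfn* 3.97, 4.47 and 4.68, and the long noncoding RNA *AC160336.1* 1.91, 2.43 and 2.39. These 10 were chosen for this difference, which is a description.

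Within cluster 2 the cells were ordered by *Psca* UMIs after thinning, and the cells with the fewest and with the most were compared in each library, 472 and 472 in UW and 220 and 220 in W. Each set is a range and not a cell type, and 162 UW and 139 W cells lay within 1 UMI of the lower limit and 40 and 24 within 1 UMI of the upper. In UW the low set had at most 6 *Psca* UMIs and the high set at least 45, and in W at most 3 and at least 28. *Cnfn* was at 4.66 CPM in the low and 18.2 in the high set of UW and at 35.5 and 226 in W, log2 ratios of 1.97 and 2.67. *Dapl1* went the other way, at 907 and 301 CPM in UW and 555 and 264 in W. These genes were ordered alike along *Psca* in both libraries.

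Other genes had different ratios along *Psca* in UW and W, and these differences were not tested. *Ly6g6c* was at 2160 CPM in the low and 2734 in the high set of UW, a log2 ratio of 0.34 (0.29 to 0.39), and at 178 and 501 CPM in W, a log2 ratio of 1.49 (1.25 to 1.73). *Spink5* was at 370.3 and 166 CPM in UW and 453 and 461 in W, log2 ratios of −1.16 and 0.03. *Sprr1a* had log2 ratios of −0.94 in UW and 1.00 in W, which are opposite in sign. *Krt14* was at 9990 and 5213 CPM in W, a log2 ratio of −0.94 (−0.98 to −0.89). In W, therefore, the cells of cluster 2 with most *Psca* held the most *Ly6g6c* and the least *Krt14* of the sets compared.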

How the data were processed

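The data were single-cell RNA counts of mouse corneal cells in 1 UW and 1 W library. The values deposited by the authors are raw UMI counts per gene and cell, without normalization, with a cell table that gives each cell's cluster, and no column of per-sample values was left unused. Per the labels the reads were processed with Cell Ranger 3.1.0 and Seurat, and the authors dropped cells under 500 or over 8000 genes or with over 10% of mitochondrial reads, removed doublets with DoubletFinder, aligned the libraries and clustered the cells; the tables hold fewer cells than the study states. The labels name the genome build mm9 and the study's methods another, mm10, and the kit version differs between them too. Doublet columns of a first run are in the table, and those cells were kept except in 1 alternative.

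Counts were summed over the cells of cluster 2 in each library and written as CPM with exact Poisson 95% intervals, and W over UW as a log2 ratio. No test was made, since each group was 1 library. A gene met the filter with at least 20 counts over both libraries and 20 CPM in one, and a 2-fold ratio was the size limit. Shares of cells used exact Clopper-Pearson 95% intervals, with each cell thinned to 5000 UMIs and shallower cells left out. A cell was called dividing or replicating from 2 or more UMIs of a list. The members and gene lists were chosen with earlier results of these data known. Genes were named by rule. The rule took the 15 highest and 15 lowest ratios at 100 CPM or more in a library, without mitochondrial, haemoglobin and ribosomal protein genes. It added the 20 genes highest over the other epithelium, the 5 markers, and the 10 genes farthest from both clusters 4 and 6. In each list it took up to 4 genes past 2-fold in each direction at 100 CPM or more, and in the lists closest to the markers all genes at that level. Genes under 100 CPM in both libraries, genes past the fourth of a list in a direction (among them *Isg15*, *Ifit1*, *Ifit3*, *Irf7*, *H2-K1*, *H2-D1*, *Oasl1*, *Anxa1*, *S100a11* and *Cyp51*), *Krt6a*, *Krt12*, *Dapl1* and markers of other cells were named after their values were seen. The count script was tested on simulated data. Alternatives were TMM scaling in edgeR 4.0.16, median-of-ratios scaling in DESeq2 1.42.0, other filters, folds, depths and sets of cells. Gene positions come from the GENCODE annotation of GRCm38 and promoter letters from RefSeq on GRCm38.p6, matched by symbol; neither was needed to make the counts. Scripts ran in Python 3.11.15 and R 4.3.3.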

Additional observations from a re-analysis of the deposited data

How the results depend on the processing

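Under TMM scaling, median-of-ratios scaling, thinning to 5000 UMIs, the mean of CPM over cells, stricter cell filters and removal of first-run doublets, the counts of genes past 2-fold stayed within 1.5 times the values above. Median-of-ratios scaling moved the median of all genes by 0.0291. Leaving out every cell with a leukocyte UMI or at least 3 stromal UMIs kept 94 UW and 27 W cells. Then 1072 genes and 71 list genes were lower in W, and *Fosl1* had a log2 ratio of −0.12. Of 141 list or named genes past 2-fold, 12 were then within it. The largest shift of a log2 ratio was 3.44 in this setting and 1.38 under thinning to 5000 UMIs. Of the 141, 2 fell within 2-fold under TMM scaling and under the mean of CPM over cells. Under median-of-ratios scaling and under thinning to 5000 UMIs 3 did. With no filter beyond more than 3 counts, 2520 genes were higher and 1924 lower in W. That pair of counts depends on setting a sum of 0 to 3 counts in libraries of unequal depth. Under a floor of 100 CPM 120 genes were higher and 187 lower, and at 1.5-fold 624 and 1551. The share of cells with *Ly6g6c* was 99.5% in UW and 83.1% in W without thinning, and 99.4% and 72.4% at 10000 UMIs. That with *Krt14* was 63.7% and 100% without thinning, and 28.3% and 100% at 10000 UMIs. Cells called neither dividing nor replicating were 22.2% in UW and 15.5% in W without thinning. No paired analysis was possible because each group has 1 library. For the same reason no replicate could be left out, and differences between sessions or libraries and the effect of the wound cannot be told apart. Differences between mice were not examined, because no assignment of cells to mice was used here. Genes under 20 CPM in both libraries were given only as markers of other cells or stages.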

Other observations

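Of 15 glycolysis and glycogen genes that met the filter, 3 were higher and 1 lower in W, with a median log2 ratio of 0.52; over all genes 6.35% were higher and 13.2% lower, and the counts below stand beside these shares too. *Pkm*, pyruvate kinase, was at 116 CPM in UW and 256 in W, and *Gapdh* at 298 and 598 CPM. *Pgm1*, which feeds glucose phosphates in and out of glycogen, was at 32.7 and 84.8 CPM, and *Gbe1*, the glycogen branching enzyme, at 28.8 and 6.07 CPM. Of 13 heat shock and chaperone genes, *Hspa8* was higher at 64.3 and 133 CPM and *Hspb1*, a small heat shock protein abundant in epithelia, lower at 4759 and 1932 CPM. Of 15 unfolded protein and stress response genes, *Sesn2* was higher at 15.1 and 68.5 CPM and *Ddit3* lower at 33.1 and 14.8 CPM. Of 14 autophagy and lysosome genes 0 were past 2-fold, with a median of −0.25. Of 3 acute phase and antimicrobial genes, *Saa3* was at 0.972 and 25.9 CPM, against 0.879 and 3674 in the stroma, and *Defb1*, beta-defensin 1, at 1035 and 402 CPM.

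The 8 genes of dividing cells summed to 7.69 CPM in UW and 37.0 in W, and 0 of them met the filter. *Mki67*, which encodes the proliferation antigen Ki-67, was at 0.824 (UW) and 2.97 CPM (W), and at 504 and 183 CPM in the dividing cluster 8. Of 10 G1 cyclin and CDK inhibitor genes 1, *Myc*, was higher and 4 were lower in W. The inhibitors *Cdkn1a* at 1082 and 463 CPM and *Cdkn1b* at 148 and 69.9 CPM were lower, and so were *Ccnd2* at 43.4 and 18.3 and *Rb1* at 28.9 and 9.35. At 5000 UMIs a cell, 0.0529% of UW cells (0.00134 to 0.295) and 1.82% of W cells (1.04 to 2.93) were called dividing, which is 1 and 16 cells, and 8.9995% and 19.98% were called replicating. Free RNA can give such calls, and no cycling is read from them.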
